A study of Homo sapiens with 3 samples.

Results

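The HOX cluster genes are the homeobox genes of the 4 human HOX clusters, HOXA, HOXB, HOXC and HOXD. All 39 gene symbols made of HOX, a cluster letter from A to D and a paralog number were taken, out of 33538 genes counted: 11 HOXA, 10 HOXB, 9 HOXC and 9 HOXD genes. They were read in 3 droplet single-cell RNA libraries of beta cell differentiations from H1, a human embryonic stem cell line in wide use. The libraries were labelled WT (unedited), HET (PAX6+/-) and KO (PAX6-/-), with 1 library each. The sources used here do not say whether the edited cells came from a clone or a pool, or where in PAX6 the lesion lies. With 1 library per genotype, genotype and library are the same thing, and no difference below could be tested against the variation between differentiations. Every interval is an exact 95% interval for counting error only. Intervals of levels, ratios and UMI shares take UMIs as independent, also where a few cells held many of them.

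HOX genes encode transcription factors that tell a cell where it lies along the head-to-tail axis. They stand in order in each cluster: genes of low paralog number are active early and reach far toward the head, in the hindbrain and the anterior gut, while genes of high number mark the trunk, the hindgut and the tail. Retinoic acid and PBX and MEIS cofactors act with the anterior genes, CDX factors with the posterior ones, and Polycomb proteins keep the unused genes silent. PAX6, the edited gene, is a transcription factor of the eye, the brain and the pancreatic islet.

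Cells were split by chromogranin A (CHGA), a protein of the secretory granules of endocrine and neural cells. CHGA-high cells had at least 10 CHGA UMIs per 10000 UMIs, where a UMI stands for 1 captured RNA molecule. They numbered 1407 in WT, 538 in HET and 980 in KO, which was 17.7%, 6.91% and 12.1% of the kept cells. CHGA-low cells numbered 6562, 7253 and 7102. The sums held 18495208, 7380626 and 11907210 UMIs over CHGA-high cells and 100283786, 108956023 and 115452837 over CHGA-low cells. The median CHGA-high cell had between 12224.5 and 12508.5 UMIs, and the median share of mitochondrial UMIs, a sign of RNA quality, was 6.55% in WT, 8.61% in HET and 9.26% in KO. The KO library still held PAX6 RNA: the level was 343 CPM in CHGA-high cells of WT, 260 in HET and 294 in KO, and 8.52, 2.66 and 3.06 CPM in CHGA-low cells. These counts therefore do not check the labels. The endocrine class held what its name says: the summed level of 17 endocrine markers was 9161 to 11590 CPM in CHGA-high cells and 436 to 725 CPM in CHGA-low cells. The hormones differed more: 7 islet hormones summed to 51950 CPM in CHGA-high cells of WT, 33140 in HET and 6795 in KO. A level of a sum cannot tell fewer cells of a type from less RNA per cell. Between 12 and 26 cell barcodes were shared by any pair of libraries.

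An upstream sequence is shown because the gene beside it, HOXB1, was found almost wholly in 1 group of cells described below. HOXB1 is the most anterior gene of the HOXB cluster and is known from the hindbrain. The 250 bases before its RefSeq start on GRCh38.p14, chr17:48531012-48531261 on the minus strand, are printed 5′ to 3′, with capitals for the match to TGATNNAT, the consensus of a joint site of HOX and PBX proteins:
HOXB1: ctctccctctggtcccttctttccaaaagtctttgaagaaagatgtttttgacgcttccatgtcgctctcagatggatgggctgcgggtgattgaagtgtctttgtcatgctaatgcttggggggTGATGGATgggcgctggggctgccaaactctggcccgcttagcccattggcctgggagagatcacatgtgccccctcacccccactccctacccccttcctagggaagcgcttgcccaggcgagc
The motif was searched on both strands in the 27 upstream windows that the RefSeq table held for 20 of the 39 genes. HOXB1, HOXA2 and HOXD11 had 1 window each with a match, 3 of 27 windows. Of all 35116 windows in the table, 6.47% had a match. A match is a description of letters and shows no binding.

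The 39 genes together gave 11892 UMIs, and HOXB2 and a few neighbours held most of those from CHGA-high cells. Levels are given as CPM, UMIs per 1e6 UMIs of the same cells with scaling factors between the sums. The HOX total was 79.3 CPM in CHGA-high cells of WT (75.3 to 83.4), 38.5 in HET (34.2 to 43.1) and 40.9 in KO (37.6 to 44.5). It was thus 2.06-fold lower in HET (1.82 to 2.34) and 1.94-fold lower in KO (1.75 to 2.14) than in WT, and the ratio of KO to HET was 1.06 (0.922 to 1.23). CHGA-low cells showed another order: 25.2 CPM in WT (24.2 to 26.2), 44.5 in HET (43.2 to 45.8) and 23.4 in KO (22.5 to 24.3). HOX RNA was 3.15-fold higher in CHGA-high than in CHGA-low cells of WT and 1.75-fold higher in KO, and 1.16-fold lower in HET.

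Most of the 39 genes were near the limit of detection. Of them, 15 reached 1 CPM in some library and class, 24 stayed at 0.647 CPM or less, and HOXC11 and HOXD12 had no UMI. The 16 genes of paralogs 9 to 13, the posterior end of the clusters, held 251 UMIs, and HOXB13 was the one that reached 1 CPM. The 18 HOXC and HOXD genes held 490 UMIs and none passed 1.33 CPM, the level of HOXC4 in CHGA-high cells of WT. Among the genes with at least 5 CPM somewhere were HOXA3, HOXB2, HOXB3, HOXB5 and HOXB8. Other HOX genes named below were chosen after their values were seen.

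HOXB2 (chromosome 17, 48540894 to 48544989, minus strand, GENCODE 29 on GRCh38), a factor of the hindbrain segments, had the most UMIs in CHGA-high cells. WT stood at 50.6 CPM (47.4 to 53.9), HET at 16.96 (14.2 to 20.1) and KO at 12.9 (11.1 to 14.99), from 955, 131 and 173 UMIs. WT was high, HET and KO were low, and KO lay below HET by 1.31-fold (1.04 to 1.66), close to the counting error. It lay below WT by 2.98-fold in HET (2.48 to 3.61) and 3.92-fold in KO (3.33 to 4.63). HOXB2 overlaps the antisense gene HOXB-AS1 on the other strand, and the sources used here do not say whether the counting used strand.

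HOXB3 (48548870 to 48604912), the neighbour on the same strand, stood at 10.4 CPM in CHGA-high cells of WT (8.98 to 11.9), 4.92 in HET (3.48 to 6.75) and 4.26 in KO (3.22 to 5.51). Its annotated gene spans HOXB4, HOXB5 and HOXB6, so reads of these 4 genes depend on how they were assigned. HOXB3 was 2.11-fold lower in HET (1.49 to 3.07) and 2.44-fold lower in KO (1.81 to 3.34). In HET 9 of its 38 UMIs in CHGA-high cells lay in 18 cells of cluster 13, described below. HOXB2 and HOXB3 were found in the same cells: 24.4% of the 365 WT CHGA-high cells with HOXB2 also had HOXB3, against 3.45% of the 1042 without it. The shares were 23.7% against 2.60% in HET and 25.0% against 2.24% in KO. Cells with HOXB2 were somewhat deeper, with medians of 13640 and 12110.5 UMIs in WT, and the part of depth was not tested.

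HOXB5 and HOXB8, from the middle of the cluster, did not follow HOXB2. HOXB8 (48611377 to 48614939), a gene of the trunk, was at 1.70 CPM in CHGA-high cells of WT (1.16 to 2.39), 1.04 in HET (0.447 to 2.04) and 8.06 in KO (6.62 to 9.74). Only KO was high, 4.76-fold above WT (3.18 to 7.30) and 7.78-fold above HET (3.81 to 18.5). HOXB5 (48591257 to 48593961) was at 3.07 CPM in WT, 1.81 in HET and 5.38 in KO (4.21 to 6.77), which was 1.75-fold above WT (1.22 to 2.52) and 2.97-fold above HET (1.66 to 5.69). In the 1134, 354 and 504 cells that had 3000 UMIs or more and no more than 10% of them mitochondrial, KO was no longer above the others for HOXB5, at 2.60, 1.88 and 1.82 CPM. HOXB8 was still highest in KO there, at 1.45, 0.376 and 5.21 CPM.

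**Figure D1:**
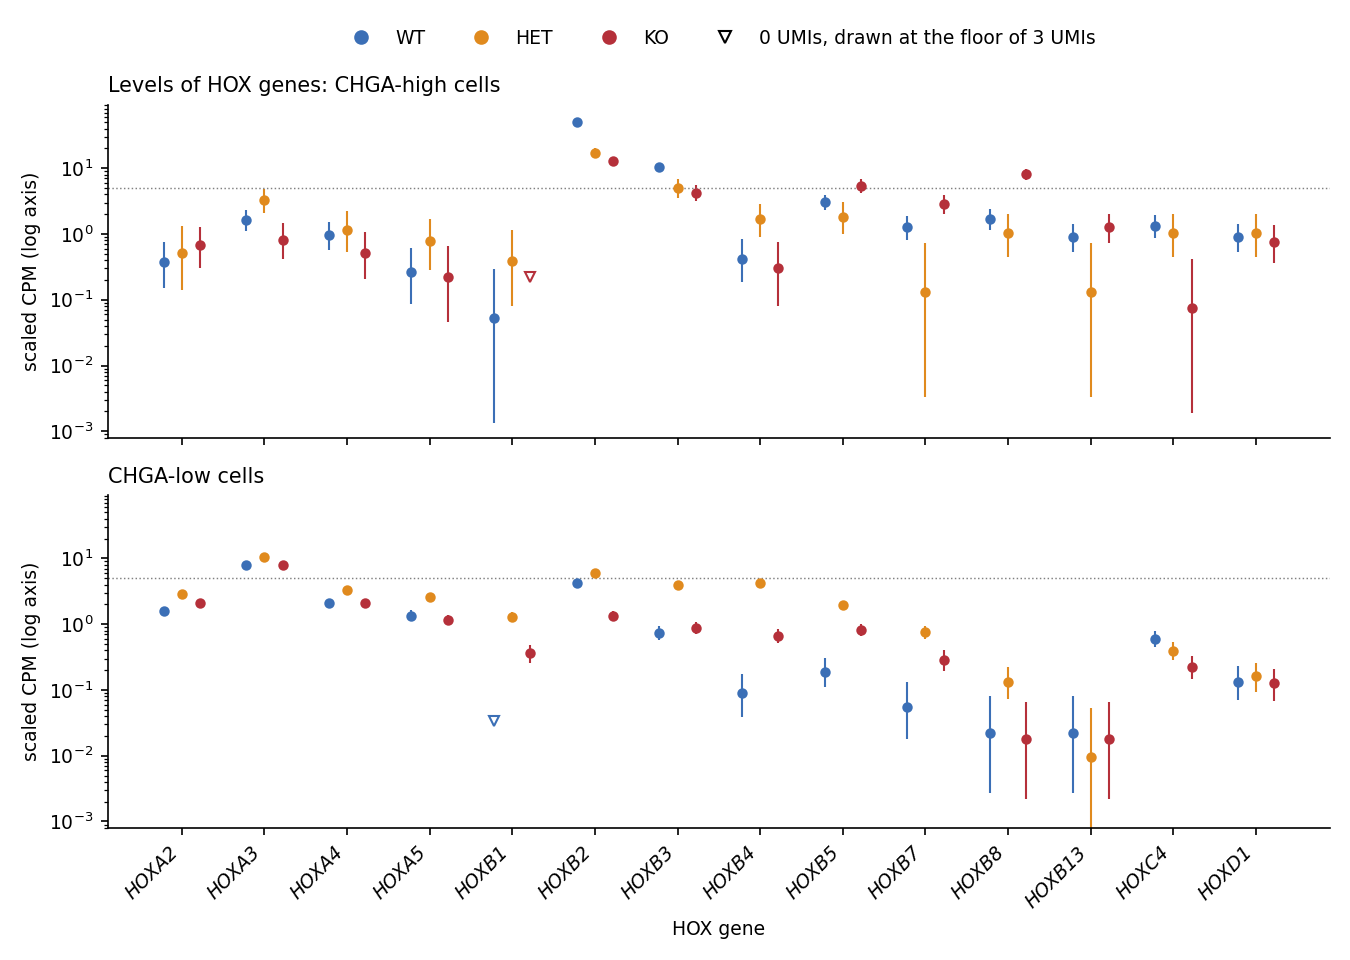
Levels of HOX genes in scaled CPM (log axis) by library and CHGA class, for most of the genes that reached 1 CPM, with exact 95% intervals for counting error, a dotted line at 5 CPM and open triangles at the floor of 3 UMIs where there was none. HOXB2 and HOXB3 were highest in CHGA-high cells of WT, HOXB8 in CHGA-high cells of KO, and HOXA3 lay higher in CHGA-low than in CHGA-high cells of each library.

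HOXA3, an anterior gene of the HOXA cluster, lay mainly elsewhere. It (chromosome 7, 27106184 to 27152581) was at 1.64 CPM in CHGA-high cells of WT, 3.24 in HET and 0.821 in KO, but at 8.04 CPM (7.46 to 8.65), 10.6 CPM (10.0 to 11.3) and 7.91 CPM (7.40 to 8.45) in CHGA-low cells. It was lower in CHGA-high cells by 4.89-fold in WT, 3.28-fold in HET and 9.63-fold in KO. In HET 8 of its 25 UMIs in CHGA-high cells lay in 18 cells of cluster 13, described below. HOXA2, HOXA4 and HOXA5 had 1.15 to 3.26 CPM in CHGA-low cells and at most 1.17 CPM in CHGA-high cells.

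Against the rule of at least 2-fold and at least 5 CPM in 1 of the sums compared, few HOX genes could be read. In CHGA-high cells HET against WT, 2 of 39 reached that level and both, HOXB2 and HOXB3, were lower, where 3.57% of 11784 genes were called, 1.26% higher and 2.31% lower. KO against WT had 4 genes at that level: HOXB2 and HOXB3 lower, HOXB8 higher and HOXB5 within 2-fold, where 7.88% of 11796 genes were called, 2.13% higher and 5.75% lower. KO against HET had 3: HOXB5 and HOXB8 higher and HOXB2 within 2-fold, where 3.97% were called, 1.13% higher and 2.84% lower. HET against WT and KO against WT share the WT library. The median log2 difference was -1.33 for the 2 genes read in HET against WT, beside -0.03 over all genes. It was -0.24 for the 4 genes read in KO against WT, beside -0.04. HOXB3 reached 5 CPM only in WT, and HOXB5 and HOXB8 only in KO, the library where each was highest. The medians therefore do not describe the 39 genes as a set.

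In CHGA-low cells 3 HOX genes reached the level in HET against WT and 2 in KO against WT, and none was called. Of all genes 3.58% were called in the first (1.55% higher, 2.03% lower) and 3.84% in the second (1.01% higher, 2.82% lower). HOXB2 was called lower in KO against HET, 1 of 2 genes read, where 1.94% of genes were called, 0.594% higher and 1.35% lower. Between the classes, 2 of 4 HOX genes read were higher and 1 lower in CHGA-high cells of WT (HOXB2, HOXB3 and HOXA3), where 26.4% of genes were called, 12.8% higher and 13.6% lower. In HET 1 of 2 was higher and 1 lower, where 23.3% were called, 10.8% higher and 12.6% lower. In KO 3 of 4 were higher (HOXB2, HOXB5, HOXB8) and HOXA3 lower, where 29.3% were called, 13.3% higher. HOXB2 was 12.0-fold higher in CHGA-high cells of WT, 2.82-fold in HET and 9.58-fold in KO. HOXB8 in KO had 108 UMIs in CHGA-high cells and 2 in CHGA-low cells, a ratio of 449 (121 to 3752).

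The anterior-posterior code is the way HOX UMIs divide over clusters and paralog numbers. The shares are of UMIs, not corrected for transcript length. In CHGA-high cells the code was mostly HOXB: 86.8% of HOX UMIs in WT (84.9 to 88.4), 72.1% in HET (66.6 to 77.1) and 87.0% in KO (83.9 to 89.7). HOXA held 9.49%, 21.5% and 8.94%. In CHGA-low cells HOXA held the larger share, 72.9% in WT, 55.6% in HET and 74.1% in KO, and HOXB 21.7%, 41.8% and 20.2%.

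By paralog number, CHGA-high cells of WT were anterior, with 85.9% of HOX UMIs from paralogs 1 to 3 (84.0 to 87.6) and 12.4% from paralogs 4 to 8. Paralog 2, nearly all of it HOXB2, held 64.3% by itself. HET had 76.8% in paralogs 1 to 3 (71.5 to 81.4) and 21.9% in 4 to 8. In KO the split was 50.9% (46.6 to 55.2) and 45.1% (40.8 to 49.3), with 20.3% in paralog 8 (16.97 to 23.9), against 2.61% in WT and 3.03% in HET. Of the 111 paralog 8 UMIs in KO, 108 were HOXB8, from 30 cells. The mean paralog number, weighted by UMIs, was 2.71 in WT, 2.90 in HET and 4.57 in KO. The HET shares and mean include 18 CHGA-high cells of cluster 13, described below. In HET these held 18 of the 131 HOXB2, 9 of the 38 HOXB3, 10 of the 13 HOXB4 and 8 of the 25 HOXA3 UMIs of CHGA-high cells. CHGA-low cells spread less between libraries, with means of 2.83, 3.12 and 3.20 and with paralog 3, mostly HOXA3, the largest group at 35.0%, 32.8% and 37.8%. Paralogs 9 to 13 held 1.67%, 1.35% and 4.01% in CHGA-high cells and 2.13%, 1.17% and 3.73% in CHGA-low cells.

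**Figure D2:**
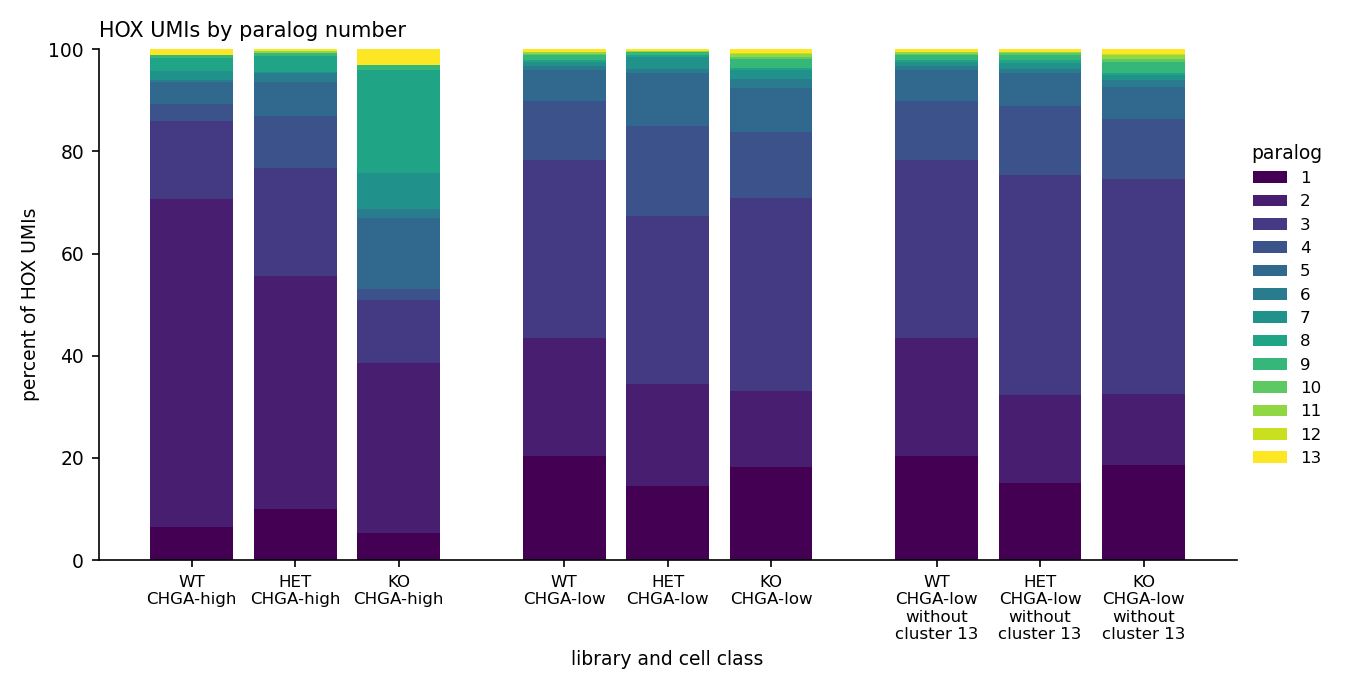
Share of HOX UMIs by paralog number (percent, stacked bars) in each library for CHGA-high cells, CHGA-low cells and CHGA-low cells without cluster 13. Paralog 2 filled 64.3% of the WT CHGA-high bar, and paralog 8 filled 20.3% of the KO one.

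Clustering of all cells with the HOX genes, PAX6 and CHGA left out gave 18 clusters, numbered by size and described by their leading genes. Mostly CHGA-high cells made up 5 of them. Cluster 9 was led by the islet hormones GCG, PYY, PPY and IAPP, cluster 11 by LINC00682, PHOX2A and TPH1, cluster 15 by GHRL, the ghrelin gene, and CRH, cluster 17 by SLC30A8, the zinc transporter of insulin granules, and cluster 18 by PRAC1 and CRYBA2. The libraries filled them unequally: cluster 9 had 851 WT, 219 HET and 68 KO cells, and cluster 15 had 36, 95 and 332. Cluster 18 was shallow, with a median of 2223 UMIs.

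HOXB2 was lower in HET and KO than in WT inside the CHGA-high clusters 9, 11 and 15 as well as in the sum of CHGA-high cells. Levels within clusters are plain CPM, without scaling factors. In cluster 11 HOXB2 was at 109 CPM in WT (100 to 118), 23.0 in HET (16.8 to 30.8) and 16.99 in KO (13.9 to 20.5), which was 4.74-fold lower in HET (3.50 to 6.58) and 6.42-fold lower in KO (5.21 to 7.98). Cluster 15 had 108 CPM in WT (79.0 to 144), 22.5 in HET and 17.8 in KO. Its WT value rested on 36 cells, of which 14 had a UMI. Cluster 9 had 46.0 CPM in WT, 15.7 in HET and, from 3 UMIs in 1 cell, 6.88 in KO. Cluster 17 was low in each library, at 3.35 and 2.91 CPM in WT and HET and with 0 UMIs in 43 KO cells, which allows up to 6.33 CPM.

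Over the CHGA-high clusters with UMIs to compare, HOXB2 was lower in HET than in WT in 4 of 4, with the counting interval below equality in 3, and lower in KO than in WT in 4 of 5, with the interval below equality in all 4 of those. With clusters weighing the same, its log2 ratio to WT was -2.05 in HET and -2.64 in KO, against -1.58 and -1.97 in the sum. The share of cells with a HOXB2 UMI gave the same order. At a fixed depth of 5000 UMIs per cell it was 16.4% of CHGA-high cells in WT (14.4 to 18.5), 7.25% in HET and 5.50% in KO, leaving out 136, 28 and 126 shallower cells. Unthinned shares were 25.9%, 14.1% and 8.98%.

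**Figure D3:**
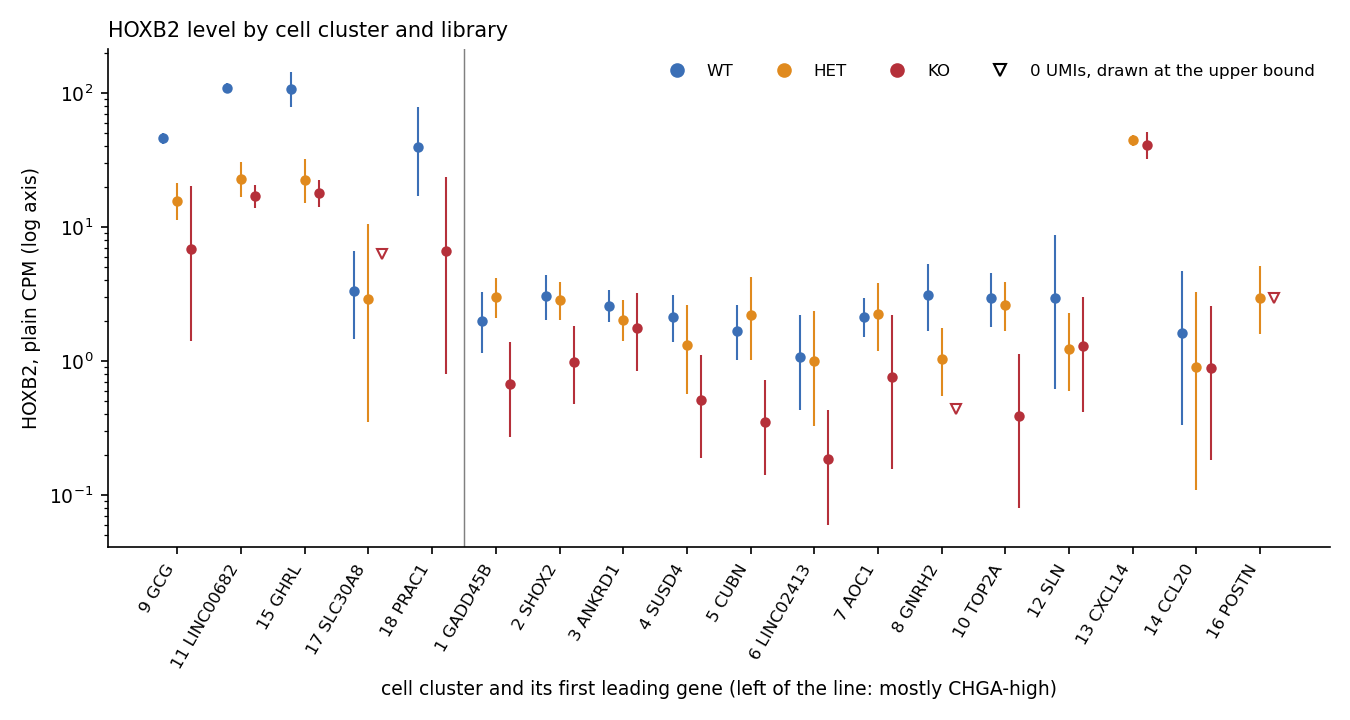
HOXB2 in plain CPM by cluster and library, with exact 95% intervals for counting error and open triangles at the upper bound where there was no UMI. WT lies above HET and KO in clusters 9, 11 and 15, and cluster 13, which had no WT cell, reaches 44.5 CPM in HET and 40.9 CPM in KO.

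CHGA-low cells also held HOXB2, at 4.23 CPM in WT, 6.03 in HET and 1.35 in KO. In the 11 mostly CHGA-low clusters with at least 20 cells in each library, the WT level lay between 1.08 and 3.12 CPM. KO was lower than WT in 10 of the 11, with no UMI in the other, which allows up to 0.439 CPM. The counting interval of the ratio of KO to WT lay below equality in 7 of the 11. HET was lower than WT in 8 of the 11, with the interval below equality in 1, and higher in 3. The thinned share of CHGA-low cells with a UMI was 1.964% in WT (1.64 to 2.34), and 1.17% in HET and 0.352% in KO without cluster 13. HOXB3 made up 17.03% of HOXB2 and HOXB3 UMIs in CHGA-high cells of WT (14.9 to 19.3) and 14.9% in CHGA-low cells (11.7 to 18.5). The shares were 22.5% (16.4 to 29.5) and 29.6% (24.5 to 35.1) in HET, and 24.8% (19.3 to 30.9) and 19.8% (12.2 to 29.4) in KO, with cluster 13 left out of the CHGA-low cells. RNA free in the droplets was not subtracted from these counts, and its part in the CHGA-low values was not tested.

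Cluster 13 set HET apart from the others in CHGA-low cells. It held 576 HET cells, 120 KO cells and no WT cell, and its leading genes were CXCL14, TFAP2B, COL3A1, GABRP and TFAP2A. It is left without a cell type name. TFAP2B was at 295 CPM in its HET cells and 391 in its KO cells and had no UMI in CHGA-low cells of WT, which allows up to 0.0413 CPM. The sum of 10 mesenchymal markers over all CHGA-low cells was 34.6 CPM in WT, 87.2 in HET and 30.3 in KO, and its part in the HOX values was not tested.

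HOX RNA in cluster 13 was 237 CPM in its CHGA-low HET cells, against 24.8 CPM in the other CHGA-low HET cells, 9.55-fold higher (9.01 to 10.1). In KO it was 280 against 18.2 CPM, 15.4-fold higher (13.9 to 16.9). In HET the cluster held 47.5% of the HOX UMIs of CHGA-low cells in 7.69% of those cells, and in KO 20.3% in 1.69%. Without it, the difference of HET from WT in the HOX total of CHGA-low cells went from a log2 ratio of 0.82 to 0.04. The cluster also held 18 CHGA-high HET cells, and without them the log2 ratio of HET to WT in CHGA-high cells was -1.25 in place of -1.04. The levels, folds and shares given above for CHGA-high cells of HET as a class include these cells.

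The genes of cluster 13 ran from HOXB1 to HOXB7. HOXB4, of the posterior hindbrain and the neck, was at 43.2 CPM in HET cells of the cluster and 0.402 CPM in other CHGA-low HET cells, 107.5-fold apart (77.6 to 153). HOXB2 was at 45.02 against 2.13 CPM, HOXB3 at 34.5 against 0.894 and HOXB5 at 19.8 against 0.171. HOXB1, whose upstream bases are printed above, had 94.2% of its CHGA-low HET UMIs there, at 13.7 against 0.0804 CPM. HOXB8 was at 0.636 CPM, and HOXB9 and HOXB13 had no UMI in its CHGA-low HET cells.

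KO cells of the cluster had like levels, 40.8 CPM of HOXB2, 41.9 of HOXB3, 37.7 of HOXB4, 18.6 of HOXB1 and 28.1 of HOXB5, from 120 cells. The ratio of KO to HET for HOXB2 there was 0.917 (0.711 to 1.17). HOXA genes were higher there too, but by less: HOXA3 1.66-fold in HET (1.39 to 1.97) and 2.42-fold in KO, and HOXA5 9.94-fold and 27.4-fold. At least 3 different HOX genes were found in 51.0% of the HET cells and 61.7% of the KO cells of the cluster, against 0.597% and 0.344% of other CHGA-low cells. At 5000 UMIs per cell the shares were 10.6% and 12.9% against 0.0460% and 0.0294%.

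Without cluster 13 the CHGA-low code became more HOXA in HET and KO. HOXA held 72.9% in WT, 79.8% in HET (78.1 to 81.3) and 84.9% in KO (83.3 to 86.4), and HOXB 21.7%, 15.9% and 8.06%. The WT sum still held 33 CHGA-low cells of cluster 11 and 135 of cluster 9, both mostly CHGA-high clusters. These had 108 and 50 of its 378 HOXB2 UMIs, and 22 and 8 of its 66 HOXB3 UMIs. The part of these cells in the difference between WT and the other libraries was not tested. HOXB2 in the CHGA-low sum then turned from higher to lower in HET than in WT, with a log2 ratio of -0.93 in place of 0.51. CHGA-low cells of cluster 11 had 8 HOXB2 UMIs in 13 HET cells, against the 108 in WT. Inside the 11 mostly CHGA-low clusters with at least 20 cells in each library, the counting interval of HET to WT lay below equality in 1.

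**Figure D4:**
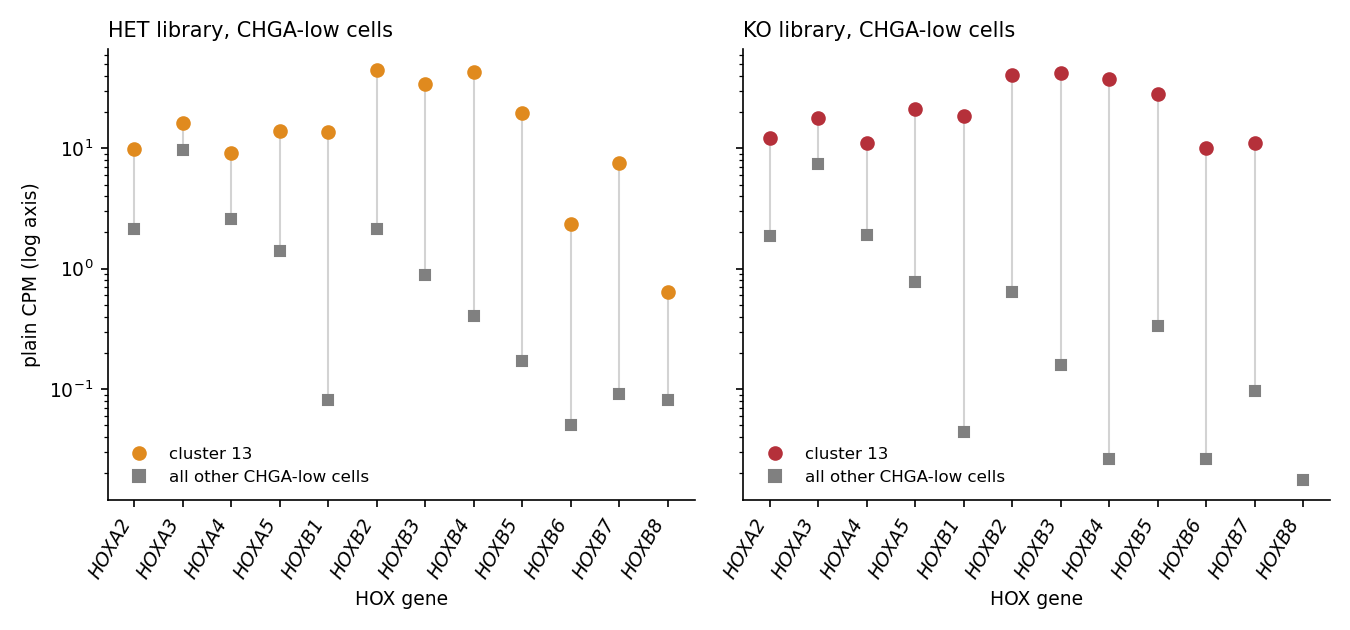
Plain CPM (log axis) of HOX genes in cluster 13 and in the other CHGA-low cells of HET and KO. HOXB1 to HOXB7 stand above the other cells, HOXB4 by 107.5-fold in HET, while HOXA3 differs by 1.66-fold, and genes with 0 UMIs, such as HOXB8 in cluster 13 of KO, have no point.

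The HOXB8 of KO lay in cluster 15, the GHRL and CRH cluster. It held 88 of the 108 HOXB8 UMIs of CHGA-high KO cells, at 20.6 CPM (16.6 to 25.4), while the same cluster had 1 UMI in 36 WT cells and 4 UMIs in 95 HET cells. The other 20 UMIs were in cluster 11 (18) and cluster 9 (2). In cluster 11 WT had 16 UMIs of HOXB8 in 3 cells, and the 18 of KO were in 5 cells. The ratio of KO to WT there was 0.940 (0.453 to 1.97), an interval that takes no account of this grouping. HOXB8 was found in 30 CHGA-high KO cells, 11 WT cells and 4 HET cells, and 5 of the 30 cells held 42 of the 108 UMIs. At 5000 UMIs per cell, 2.46% of KO cells had a HOXB8 UMI, against 0.629% in WT and 0.588% in HET. The values moved with RNA quality: 68 of the 108 UMIs were in cells with over 10% mitochondrial UMIs, at 13.7 plain CPM, and 40 were in cells at or below 10%, at 5.77 plain CPM. The part of RNA quality in the difference was not tested.

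HOXB5 shared these cells in part. Of the 30 KO cells with HOXB8, 36.7% (19.9 to 56.1) had HOXB5, against 1.79% of the other CHGA-high KO cells. In CHGA-high KO cells 57 of its 72 UMIs were in cells with over 10% mitochondrial UMIs, and 5 cells held 34. In cluster 15 HOXB5 was at 16.4 CPM in WT from 7 UMIs, 6.21 in HET and 16.7 in KO. The mean paralog number of cluster 15 was 2.83 in WT, 3.12 in HET and 4.82 in KO.

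**Figure D5:**
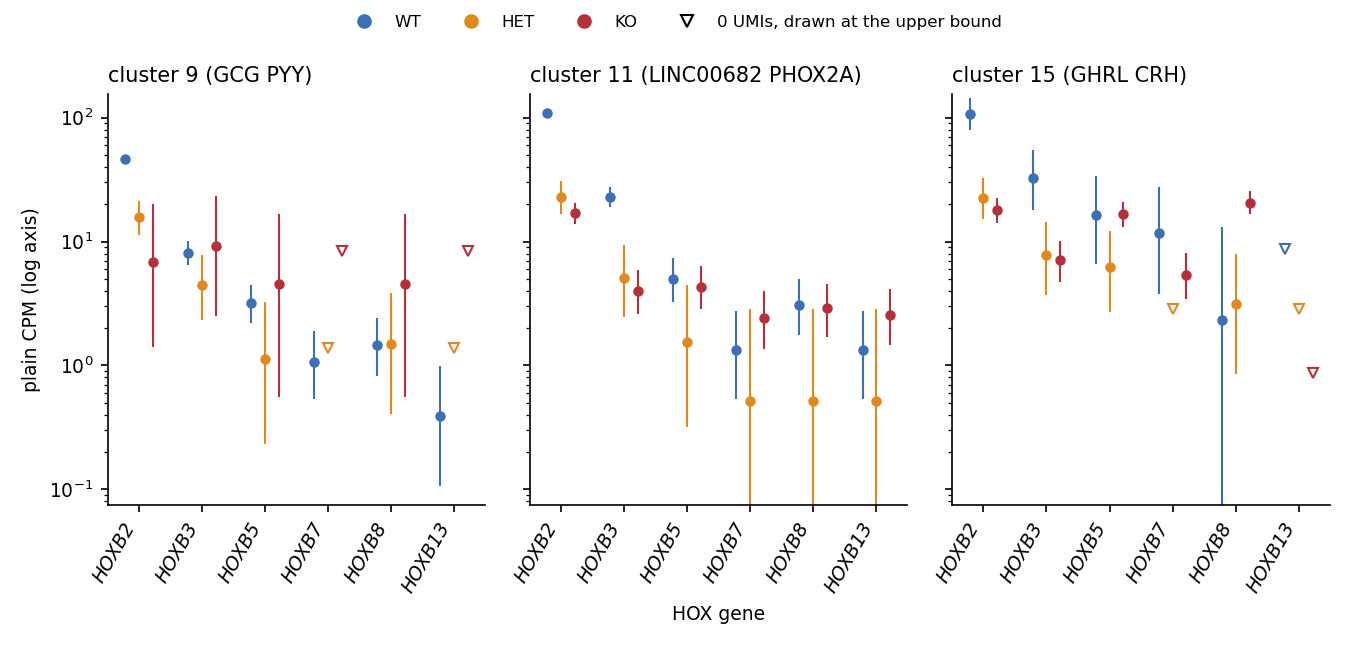
HOXB2, HOXB3, HOXB5, HOXB7, HOXB8 and HOXB13 in plain CPM (log axis) by library in clusters 9, 11 and 15, with exact 95% intervals for counting error and open triangles at the upper bound where there was no UMI. HOXB8 reaches 20.6 CPM in cluster 15 of KO, where WT had 1 UMI and HET 4, while HOXB2 is highest in WT in each panel.

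HOXB13 (48724763 to 48729178), the most posterior gene of its cluster and known from the prostate and the distal colon, was at 0.901 CPM in CHGA-high cells of WT from 17 UMIs in 7 cells, 0.130 in HET from 1 UMI and 1.27 in KO from 17 UMIs in 9 cells. PRAC1, its neighbour (48721719 to 48722522), was in 5 of the 7 WT cells and 7 of the 9 KO cells with HOXB13, against 0.786% and 3.91% of the other CHGA-high cells. PRAC1 itself was at 7.84 CPM in WT, 3.24 in HET and 26.7 in KO, 2.42-fold below WT in HET and 3.40-fold above WT in KO. Of the 10 genes that flank the HOX clusters 6 were read, and PRAC1 was the 1 called in KO against WT, beside 7.88% of all genes called and 2.13% called higher.

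Of 16 noncoding RNAs of the HOX clusters found in the files, 2 reached 5 CPM in CHGA-high cells of KO or WT, and both were lower in KO, beside 5.75% of all genes called lower. HOXB-AS1, antisense to HOXB2, was at 19.2 CPM in WT, 4.14 in HET and 3.36 in KO, 4.64-fold lower in HET and 5.72-fold lower in KO. It reached 5 CPM only in WT, the library where it was highest. HOTAIRM1, of the HOXA cluster, was at 23.6, 13.2 and 5.53 CPM, 4.28-fold lower in KO. It was at 28.1, 27.5 and 19.7 CPM in CHGA-low cells, where it was not called.

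Of the 9 PBX, MEIS and PKNOX cofactors, 7 were read and 2 were called in CHGA-high cells, both lower in KO than in WT, beside 5.75% of all genes called lower there. MEIS2 was at 145 CPM in WT, 104 in HET and 23.7 in KO, 6.12-fold lower in KO than in WT and 4.40-fold lower than in HET. MEIS3 was at 59.8, 30.4 and 26.9 CPM. The median log2 ratio of the 7 was -0.24 in KO against WT and -0.02 in HET against WT. PBX3 went the other way between classes, with 62.2, 69.1 and 84.4 CPM in CHGA-high cells and 5.63, 8.005 and 4.45 CPM in CHGA-low cells.

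Among the 18 retinoic acid genes, 10 were read in CHGA-high cells in KO against WT and 2 were lower, the binding proteins CRABP1 (4.26-fold) and CRABP2 (2.51-fold), beside 5.75% of all genes called lower. The median log2 ratio of the 10 was -0.38, beside -0.04 over all genes. In this comparison CRABP1 and CRABP2 reached 5 CPM only in WT, where they were higher. The median describes the genes read and not the list as a set. CRABP1 alone was called in HET against WT. It was 3.48-fold lower in CHGA-high cells, 1 of 10 read, beside 2.31% of all genes called lower. In CHGA-low cells it was 3.09-fold higher, 1 of 12 read, beside 1.55% of all genes called higher. In each class CRABP1 reached 5 CPM only in the library where it was highest. Its level in cluster 13 of HET was 58.0 CPM. CYP26A1, which breaks retinoic acid down, was at 1.959 CPM in CHGA-low cells of WT, 3.01 in HET and 9.42 in KO. ALDH1A3, which makes it, was 2.62-fold higher in KO than in WT there, and ALDH1A1 2.19-fold lower. For KO against WT in CHGA-low cells 13 of the list were read, with 2 called higher and 1 lower. The 2 called higher, CYP26A1 and ALDH1A3, reached 5 CPM there only in KO, the library where each was highest. Of all genes 1.01% were called higher and 2.82% lower there.

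CDX1 and CDX2, ParaHox factors of the intestine, were lower in CHGA-high cells of KO than of WT, by 3.05-fold and 2.12-fold, 2 of 3 ParaHox genes read, beside 5.75% of all genes called lower. In this comparison CDX1 reached 5 CPM only in WT. CDX2 was higher in CHGA-low cells, at 262, 139 and 161 CPM. Of 27 Polycomb and trithorax genes, 26 were read and none was called between libraries in either class, with medians from 0.003 to 0.07 on the log2 scale. Of 3 hindbrain regulators of anterior HOX genes, 2 were read and none was called between libraries. Over these comparisons between libraries, 1.94% to 7.88% of all genes were called. With so few genes read, the counts lie near that share and are not read as a result about either list. The lists were chosen with earlier results of these data known, and these counts are a description.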

How the data were processed

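Single-cell RNA was read in 3 libraries. Per the file headers, the authors' deposited matrices hold raw UMI counts per gene and barcode from Cell Ranger 6.1.2. GRCh38 and Seurat are named in the submitters' processing notes. None of the sources used here gives the annotation release, the strand setting or the transcript end read. Deposited barcodes had at least 500 UMIs.

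Barcodes were kept with at least 1000 UMIs, 500 genes and at most 20% mitochondrial UMIs, leaving 8662, 8468 and 8785. Scrublet (scanpy 1.11.5, expected rate 0.08) set automatic thresholds in WT and KO that called 0 doublets and found no threshold in HET, and so had not worked. The top 8% of scores were removed in each, leaving 7969 WT, 7791 HET and 8082 KO cells, in which doublets may remain. Counts were summed per library and class and scaled with TMM factors of edgeR 4.0.16 (R 4.3.3) over the 6 sums. Clusters came from 2000 variable genes, 30 components, 20 neighbours and Leiden clustering (leidenalg 0.10.2, resolution 1). Levels have exact Poisson, ratios exact conditional binomial and shares Clopper-Pearson intervals at 95%. Genes at 0 were set against a floor of 3 counts. Named genes were HOXB2 and each HOX gene with at least 5 CPM in a library and class, and up to 4 called members of each other list per comparison. All 39 genes were found by identifier in GENCODE 29; 22 overlap another HOX gene on the same strand. The scripts were tested on simulated data. The members, classes and lists were chosen with earlier results of these data known. Alternatives were other scaling, doublet, cell, CHGA, level and thinning settings and equal weights of clusters. Some genes are not reported here.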

Additional observations from a re-analysis of the deposited data

Results flagged for a closer look

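HOXB3 moved in opposite directions in the classes: its log2 ratio of HET to WT was -1.08 in CHGA-high cells and 2.41 in CHGA-low cells. HOXB7, outside the rule for named genes, went the same way, with -3.30 in CHGA-high cells, from 1 UMI in HET and 24 in WT, and 3.76 in CHGA-low cells, from 80 UMIs in HET and 5 in WT. With 1 library per genotype the difference between the classes was not tested. In HET, cluster 13 held 78.6% of the HOXB3 UMIs and 88.8% of the HOXB7 UMIs of CHGA-low cells.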

How the results depend on the processing

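No paired analysis was possible because each genotype had 1 library, and no replicate could be left out. The cause of each change was not tested. Leaving cells out shows only how far a value rested on those cells. Log2 ratios of the HOX total to WT in CHGA-high cells, HET then KO, were -1.04 and -0.95. They were -1.69 and -1.47 with clusters weighing the same. Keeping doublets, which the automatic threshold equals, gave -0.83 in HET, and stricter cells gave -1.37 in KO and -0.32 for KO to HET. In CHGA-low cells the HET ratio of 0.82 was 0.91 at a CHGA threshold of 5, 0.94 in plain CPM and, with equal weights of clusters, 0.046, where KO to HET was -0.21. Plain CPM gave 0.005 for KO, and moved the median of all genes in KO against WT in CHGA-high cells from -0.04 to 0.10.

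Leaving out cluster 13, chosen after seeing the data, gave a HOX total of -1.25 for HET to WT and 0.32 for KO to HET in CHGA-high cells, and of 0.036 for HET, -0.39 for KO and -0.43 for KO to HET in CHGA-low cells. HOXB2 in CHGA-low cells became -0.93 for HET, -2.65 for KO and -1.72 for KO to HET, and HOXB3 for HET fell from 2.41 to 0.33. HOXB5 in CHGA-low cells turned to -0.10 for HET to WT and to 0.98 for KO to HET. The HOXB share became 15.9% in HET and 8.06% in KO, and the HET mean paralog number 3.05.

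HOXB2 for HET and KO to WT in CHGA-high cells was -2.05 and -2.64 with clusters weighing the same, and -2.23 in KO with stricter cells. In CHGA-low cells HET was 0.22 at a CHGA threshold of 20, 0.98 at 5 and -0.27 with clusters weighing the same, KO was -1.29 at 5, and KO to HET was -1.40 with clusters weighing the same. Stricter cells turned HOXB5 for KO to HET in CHGA-high cells to -0.044. Keeping doublets, or the automatic threshold, gave HOXB shares in CHGA-high cells of 83.5% in WT, 65.9% in HET and 80.4% in KO, and stricter cells 82.0% in KO. The WT share in CHGA-low cells was 25.9% at a CHGA threshold of 20 and 16.99% at 5. The mean paralog number was 3.12 in HET at 5 and 4.17 in KO with stricter cells, both in CHGA-high cells.

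Counts of HOX genes called moved with the level asked. Shares of all genes called are given here only for the main settings. The counts of this paragraph therefore have no background beside them and are not read as a result about HOX genes. With no minimum level they were, in CHGA-high cells, 5 for HET to WT, 6 for KO to WT and 6 for KO to HET, and in CHGA-low cells 7, 9 and 12. At 50 CPM they were 1, 1 and 0 in CHGA-high cells and 0 for KO to HET in CHGA-low cells. For KO to HET in CHGA-high cells, keeping doublets, the automatic threshold and stricter cells each left 1. A CHGA threshold of 20 gave 1 for HET to WT in CHGA-high cells and 1 for KO to WT in CHGA-low cells, and without cluster 13 KO to HET in CHGA-low cells had 0. HOXB2 was found in 25.9%, 14.1% and 8.98% of CHGA-high and 3.96%, 6.22% and 1.68% of CHGA-low cells without thinning. At 3000 UMIs the CHGA-high shares were 12.3%, 4.62% and 3.48%, and the CHGA-low shares 1.27% in WT and 1.73% in HET. TMM factors within each class moved none of the values recomputed with them past counting error. Depth limits the genes under 1 CPM and clusters with few cells of a library.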
